A study of Monodelphis domestica with 6 samples.

Results

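SOX factors are transcription factors that bind DNA through a shared high-mobility-group (HMG) box, and 10 of them that are used as markers of pluripotency, neural tissue and endoderm were followed here: SOX1, SOX2, SOX3 and SOX21 of the SOXB group, SOX4 and SOX11 of the SOXC group, SOX8 of the SOXE group, and SOX7, SOX17 and SOX18 of the SOXF group. They were chosen by gene symbol, all 10 had a row among the 35665 genes of the deposited tables, and 17 SOX genes had one in all. The study reprogrammed neonatal skin fibroblasts (neoSFs) of the opossum Monodelphis domestica, a laboratory marsupial, into induced pluripotent stem cells (monoiPSCs) and sequenced the RNA of both. The 2 neoSF libraries came from female pups of 10 days of age, 1 from each of the inbred strains FD2M1 and LSD1, whose fibroblasts were expanded in fibroblast growth medium. The 4 monoiPSC libraries came from 1 line per strain, each sampled at passage 15 and passage 25 in a feeder-free medium with LIF, bFGF and a ROCK inhibitor. Both lines had been made from those fibroblasts with episomal plasmids that carried human OCT4, SOX2, NANOG, KLF4, LIN28 and cMYC together with a dominant-negative mouse p53. Human transcripts of these plasmids were not analysed here, and whether reads of the human SOX2 plasmid were counted on opossum SOX2 was not tested. Passages of 1 line are not independent reprogramming events, and p-values over the 4 monoiPSC libraries measure only the spread between these samples.

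SOX2 is the SOXB1 factor that acts with the POU factor OCT4 on the enhancers of pluripotency genes, and it stays on when epiblast cells become neural progenitors, where it overlaps with SOX1 and SOX3. SOX21 belongs to the SOXB2 subgroup, which represses many of the targets that SOXB1 factors activate. SOX4 and SOX11 accompany neuronal differentiation and are also active in many embryonic mesenchymal tissues, SOX8 works in the neural crest and in glia, SOX17 specifies definitive and extraembryonic endoderm, and SOX7 and SOX18 are best known from endothelium.

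The neoSF libraries held 14278794 and 16982978 counts, read as 50-base single ends, and the monoiPSC libraries held between 28684754 and 35564261 counts, read as 150-base paired ends by a service laboratory. Cell type and sequencing platform therefore cannot be told apart. Levels are given as normalized read counts (NRC), the deposited log2 values taken back to the linear scale, and an NRC of 20 was the limit of expression. A floor of 3 counts corresponded to 5.85 and 4.75 NRC for the neoSFs and to 1.55 to 1.88 NRC for the monoiPSCs, so a low value was measured less precisely in the fibroblasts. These limits cover counting error only. All 7 measured fibroblast markers fell and all 6 pluripotent markers rose in the monoiPSCs, with a summed NRC of the pluripotent markers of 127 to 191 in neoSFs and 6435 to 10307 in monoiPSCs.

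Of these 10 genes, SOX2, SOX3 and SOX21 rose from neoSFs to monoiPSCs, SOX4 and SOX11 were abundant in both cell types, SOX8 fell, and SOX17 had no more than 4 counts in any library. A gene entered the test when its NRC reached 20 in every library of at least 1 of the cell types. That left 7 of the 10 genes, and SOX1, SOX7 and SOX17 were not tested. A gene that passed through 1 cell type alone was in effect picked for being high there. SOX2, SOX3 and all pluripotent markers but SALL4 passed through the monoiPSCs alone. Differential expression (DE) required a change of 2-fold or more together with a p, adjusted by Benjamini-Hochberg over the 13072 genes tested, of 0.05 or less in edgeR's quasi-likelihood test. By this rule 3 of the 7 rose (SOX2, SOX3, SOX21) and 1 fell (SOX8). Of all genes tested 45.9% were DE, made up of 24.3% that were higher and 21.6% that were lower in monoiPSCs. The share of SOX genes called was thus near the background. The median log2 fold change of the 7 was 1.42, against 0.08 over all genes tested.

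**Figure D1:**
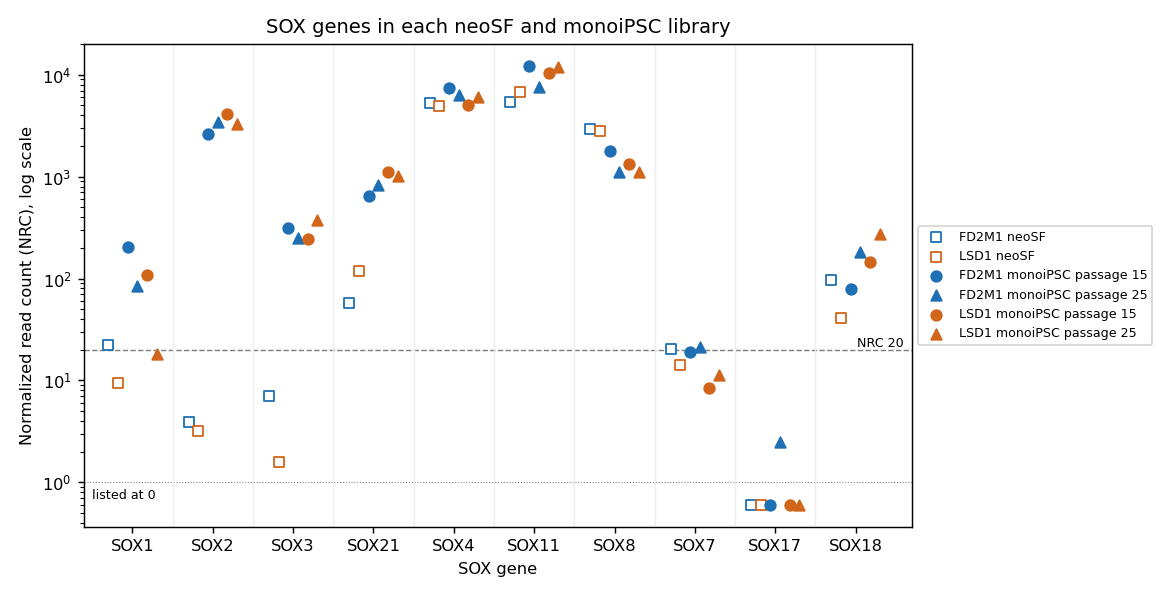
NRC (log scale) of each of the 10 SOX genes in each of the 6 libraries, with squares for neoSFs, circles for monoiPSCs at passage 15 and triangles for passage 25, blue for FD2M1 and orange for LSD1; the dashed line is an NRC of 20, and values listed at 0 are drawn below the dotted line. SOX2 and SOX3 lie below an NRC of 20 in both neoSF libraries and above 242 in all monoiPSC libraries, SOX4 overlaps between the groups, and SOX17 has a single value above 0.

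SOX2 had 2 counts in each neoSF library, an NRC of 3.90 for FD2M1 and of 3.17 for LSD1. In the monoiPSCs it stood at 2649 (FD2M1) and 4088 (LSD1) at passage 15, and at 3438 (FD2M1) and 3281 (LSD1) at passage 25. Both neoSF values lay under the floor, and the 4 monoiPSC values stayed within 1.54-fold of each other. The neoSF mean was 3.53 ± 0.52 (SD, n = 2) and the monoiPSC mean 3364 ± 591 (SD, n = 4). The log2 fold change was 9.96 (SE 0.37, 95% interval 9.11 to 10.82, adjusted p = 7.81e-06 in edgeR's quasi-likelihood test). Since the fibroblast value rests on 4 counts in all, the ratio of scaled summed counts was 1030 with a 95% Clopper-Pearson interval of 402 to 3781, which covers counting error only. SOX2 thus had the largest change of the SOX genes tested.

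SOX3, an X-linked SOXB1 gene that shares expression with SOX2 in the early neural plate, followed at a lower level. Its NRC was 6.98 in FD2M1 and 1.58 in LSD1 neoSFs, from 3.58 and 1 counts. In the FD2M1 monoiPSCs it was 312 at passage 15 and 249 at passage 25, and in the LSD1 monoiPSCs it was 242 and 377. The groups did not overlap, and the order of the strains turned between passages. SOX3 rose by 6.12 on the log2 scale (SE 0.57, 95% interval 4.78 to 7.46, adjusted p = 0.000124 in edgeR's quasi-likelihood test). Its ratio of scaled summed counts was 72.6, with a 95% Clopper-Pearson interval of 31.1 to 224.

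SOX21 was already above an NRC of 20 in the fibroblasts of both strains. The neoSF values were 57.3 in FD2M1 and 119 in LSD1. The monoiPSC values were 647 (FD2M1) and 1116 (LSD1) at passage 15 and 831 (FD2M1) and 1004 (LSD1) at passage 25. LSD1 was the higher strain in the fibroblasts and at both passages, and the groups did not overlap. The mean went from 87.9 ± 43.3 (SD, n = 2) to 900 ± 205 (SD, n = 4), a log2 fold change of 3.44 (SE 0.39, 95% interval 2.52 to 4.36, adjusted p = 0.000294 in edgeR's quasi-likelihood test).

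SOX1, the SOXB1 gene most closely tied to neural commitment, behaved differently from its relatives. In neoSFs its NRC was 22.4 in FD2M1 and 9.50 in LSD1, from 11.5 and 6 counts. In monoiPSCs it ranged from 203 in FD2M1 at passage 15, through 109 in LSD1 at passage 15 and 84.1 in FD2M1 at passage 25, down to 18.0 in LSD1 at passage 25. The highest monoiPSC library was 11.2-fold above the lowest, the widest such ratio among the 9 SOX genes listed here that had reads in every monoiPSC library, and the lowest lay inside the neoSF range. Because LSD1 at passage 25 missed an NRC of 20, SOX1 did not enter the test. With no expression filter its log2 fold change was 2.77 (95% interval 0.58 to 4.95, adjusted p = 0.0401 in edgeR's quasi-likelihood test), and with a filter on 20 raw counts the adjusted p was 0.0466. The exact two-sided permutation test of its mean log2 value gave p = 0.2.

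SOX4 and SOX11, which accompany neuronal differentiation and occur widely in embryonic mesenchyme, were among the abundant SOX transcripts of both cell types. SOX4 stood at 5238 (FD2M1) and 4975 (LSD1) in neoSFs, at 7386 and 5064 in the same strains at passage 15, and at 6343 and 6084 at passage 25. The groups overlapped, since LSD1 at passage 15 lay between the neoSF values. SOX4 had a log2 fold change of 0.38 (95% interval -0.05 to 0.81, adjusted p = 0.106 in edgeR's quasi-likelihood test), an interval that lies under a doubling.

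SOX11 stood at 5437 (FD2M1) and 6796 (LSD1) in neoSFs. In monoiPSCs it was 12228 (FD2M1) and 10474 (LSD1) at passage 15, and 7649 (FD2M1) and 11842 (LSD1) at passage 25. All monoiPSC libraries lay above both neoSF libraries, with the FD2M1 line at passage 25 nearest to them. The log2 fold change was 0.88 (SE 0.24, 95% interval 0.33 to 1.44, adjusted p = 0.0137 in edgeR's quasi-likelihood test), significant but under the 2-fold limit. SOX11 passed that limit when LSD1 neoSFs (1.06) or FD2M1 monoiPSCs at passage 25 (1.01) were left out. Without the FD2M1 neoSFs its change was 0.72, in a fit that left a single neoSF library and whose p is not given here. With the passage 25 libraries alone the change was 0.76 and not significant (adjusted p = 0.0770 in edgeR's quasi-likelihood test).

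SOX8, a SOXE gene of neural crest and glia, was the only one of the 7 tested to fall. The neoSF values were nearly equal, 2920 in FD2M1 and 2839 in LSD1. In monoiPSCs SOX8 was 1787 (FD2M1) and 1322 (LSD1) at passage 15, and 1108 (FD2M1) and 1110 (LSD1) at passage 25. The groups did not overlap, and SOX8 nevertheless remained far above the limit of expression in every monoiPSC library. It fell by 1.02 on the log2 scale (SE 0.22, adjusted p = 0.00493 in edgeR's quasi-likelihood test), close to the 2-fold limit. The call was lost with the passage 15 libraries alone (-0.81), without FD2M1 at passage 25 (-0.94) and without LSD1 at passage 25 (-0.95), while the adjusted p stayed at or below 0.0264 in all 15 alternatives.

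SOX17, the endoderm factor, had no count in either neoSF library or in 3 of the 4 monoiPSC libraries. The FD2M1 line at passage 25 had 4 counts, an NRC of 2.51. A count of 0 allows up to 3 counts, or an NRC of 1.55 to 1.68 in those 3 monoiPSC libraries and of up to 5.85 in neoSFs. LOC100022757, which the RefSeq annotation describes as SOX-17-like and places next to SOX17 on chromosome 3, had 6 counts over all libraries.

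SOX7 was low and alike in both cell types, at 20.5 (FD2M1) and 14.3 (LSD1) in neoSFs. In monoiPSCs it was 19.1 and 21.3 in FD2M1, and 8.41 and 11.3 in LSD1, at passages 15 and 25. FD2M1 was the higher strain in each of these 3 settings, and no more than 34 counts stood behind any value. With no expression filter its log2 fold change was -0.07, with a 95% interval of -1.51 to 1.36 that includes a doubling in either direction (adjusted p = 0.927 in edgeR's quasi-likelihood test).

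SOX18, which acts in vascular and lymphatic endothelium, was the SOXF gene that passed the filter. Its NRC was 96.3 in FD2M1 and 40.7 in LSD1 neoSFs. In monoiPSCs it was 79.7 (FD2M1) and 145 (LSD1) at passage 15, and 180 (FD2M1) and 274 (LSD1) at passage 25. The groups overlapped through the FD2M1 line at passage 15, which lay between the neoSF values. Its log2 fold change of 1.42 (SE 0.58, 95% interval 0.06 to 2.77) had an adjusted p of 0.0657 in edgeR's quasi-likelihood test. SOX18 was called DE by DESeq2 (1.37, adjusted p = 0.0322), in edgeR with the passage 25 libraries alone (1.83, adjusted p = 0.0414) and in edgeR without FD2M1 at passage 15 (1.65, adjusted p = 0.0285), over a range of adjusted p of 0.0285 to 0.297 in 15 alternatives.

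**Figure D2:**
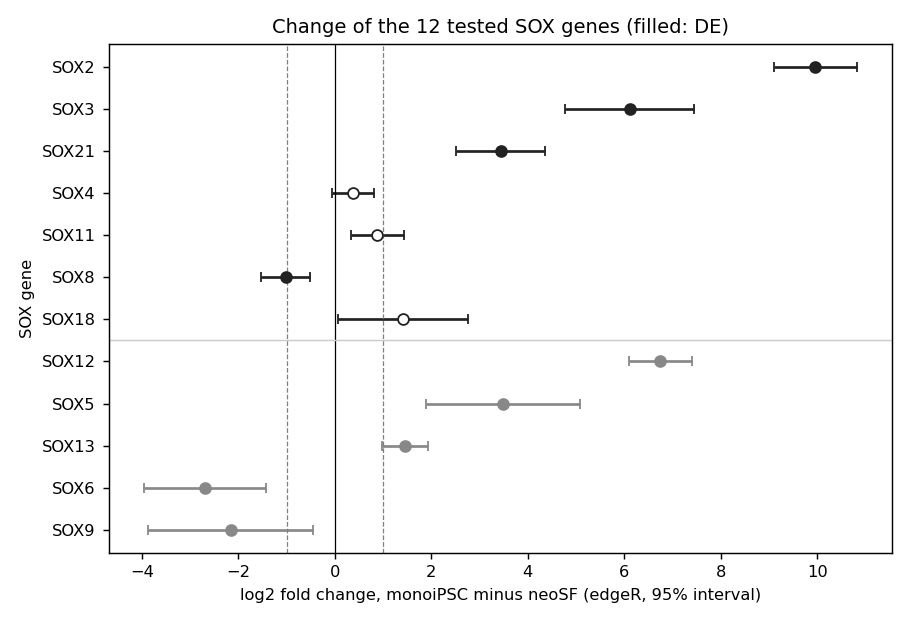
Log2 fold change (monoiPSC minus neoSF) of the 12 SOX genes tested, as points with 95% intervals from edgeR, with the 7 genes described above in black and the other 5 SOX genes in gray; filled points are DE and dashed lines mark a 2-fold change. SOX2 (9.96), SOX12 (6.75) and SOX3 (6.12) lie farthest to the right, the intervals of SOX11, SOX8, SOX18, SOX13 and SOX9 cross a dashed line, and SOX4 lies between the lines.

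For single genes, the exact two-sided permutation test of 2 against 4 libraries cannot go below p = 0.0667. SOX2, SOX3, SOX21, SOX11 and SOX8, whose groups did not overlap, reached that smallest value. Over all genes tested, 73.2% had groups that did not overlap, and 5 of these 7 SOX genes did. SOX18 gave p = 0.2, SOX4 p = 0.267 and SOX7 p = 0.667 in the same exact permutation test.

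Levels of different genes were compared per kilobase of gene span, taken from the RefSeq mMonDom1.pri annotation, which is another assembly than the MonDom5 build of the files and includes introns. In monoiPSCs, SOX2 (1177 ± 207 NRC per kilobase, SD, n = 4), SOX4 (1099 ± 168) and SOX11 (1068 ± 210) were the highest and did not differ beyond their spread. SOX8 (165 ± 39.6) and SOX3 (125 ± 26.7) formed the next level, with overlapping values, followed by SOX18 (44.9 ± 21.4) and SOX1 (23.1 ± 17.1), which overlapped as well, and then by SOX7 (1.80 ± 0.74) and SOX17 (0.11 ± 0.23). In neoSFs the order was SOX4 (902 ± 32.9, SD, n = 2), SOX11 (619 ± 97.3) and SOX8 (357 ± 7.11), with no overlap among these 3, then SOX18 (18.1 ± 10.4). SOX1, SOX7, SOX3 and SOX2 averaged between 1.24 and 3.57 NRC per kilobase in neoSFs. SOX21 was left out of this order because its span of 29344 bases, with introns of unknown share, was not comparable. The intron share of the other spans, such as the 8064 bases of SOX8, was not known either, so the order is approximate.

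Within the monoiPSCs, passages and strains were compared to ask how stable the SOX levels were in culture. No SOX gene was DE between passages 25 and 15 in edgeR's quasi-likelihood test with strain as a covariate, and neither was any other of the 12252 genes tested (0%), although 1145 had an unadjusted p under 0.05. DESeq2 called 119 genes, none of them a SOX gene described here, and limma called 0. For strain, with the passage in the model, edgeR again called 0% of the genes, 1736 had an unadjusted p under 0.05, DESeq2 called 191, none of them one of these SOX genes, and limma called 0.

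SOX2 had the smallest coefficient of variation of the SOXB genes over the monoiPSC libraries, 17.6%. Its log2 difference was 0.01 from passage 15 to 25 (95% interval -0.49 to 0.52) and 0.28 from FD2M1 to LSD1 (95% interval -0.22 to 0.79). The passage value joined opposite steps of SOX2, 0.38 in FD2M1 and -0.32 in LSD1. SOX4 gave 0.01 for passage (95% interval -0.39 to 0.41) and SOX21 gave 0.09 (95% interval -0.40 to 0.57). For these 3 genes a 2-fold change between passages lies outside the interval. The same held for SOX3 (95% interval -0.59 to 0.87), SOX11 (-0.78 to 0.25) and SOX8 (-0.91 to -0.06), but not for SOX18 (0.31 to 1.74).

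Between passages, SOX1 and SOX18 each moved the same way in both lines, down for SOX1 and up for SOX18. SOX1 was lower at passage 25 in both lines, 2.41-fold in FD2M1 and 6.06-fold in LSD1, and lower in LSD1 than in FD2M1 at both passages, 1.85-fold at passage 15 and 4.66-fold at passage 25. The log2 difference of SOX1 with no expression filter was -1.91 for passage (95% interval -2.98 to -0.84, adjusted p = 0.376) and -1.49 for strain (adjusted p = 0.297) in edgeR's quasi-likelihood test. SOX18 was higher at passage 25 in both lines, 2.26-fold in FD2M1 and 1.88-fold in LSD1. Its log2 difference for passage was 1.03 (95% interval 0.31 to 1.74, adjusted p = 0.414), and for strain 0.74 (adjusted p = 0.345), in edgeR's quasi-likelihood test. Neither gene passed the adjustment.

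SOX8 was 1.61-fold lower at passage 25 in FD2M1 and 1.19-fold lower in LSD1, with a log2 difference of -0.49 (adjusted p = 0.509 in edgeR's quasi-likelihood test). SOX2, SOX3, SOX4, SOX11 and SOX21 went in opposite directions in the lines. SOX2 was 1.30-fold higher in FD2M1 and 1.25-fold lower in LSD1 at passage 25. In the same lines SOX21 was 1.29-fold higher and 1.11-fold lower, and SOX4 was 1.16-fold lower and 1.20-fold higher. SOX3 was 1.25-fold lower in FD2M1 and 1.56-fold higher in LSD1 at passage 25, and SOX11 was 1.60-fold lower in FD2M1 and 1.13-fold higher in LSD1.

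**Figure D3:**
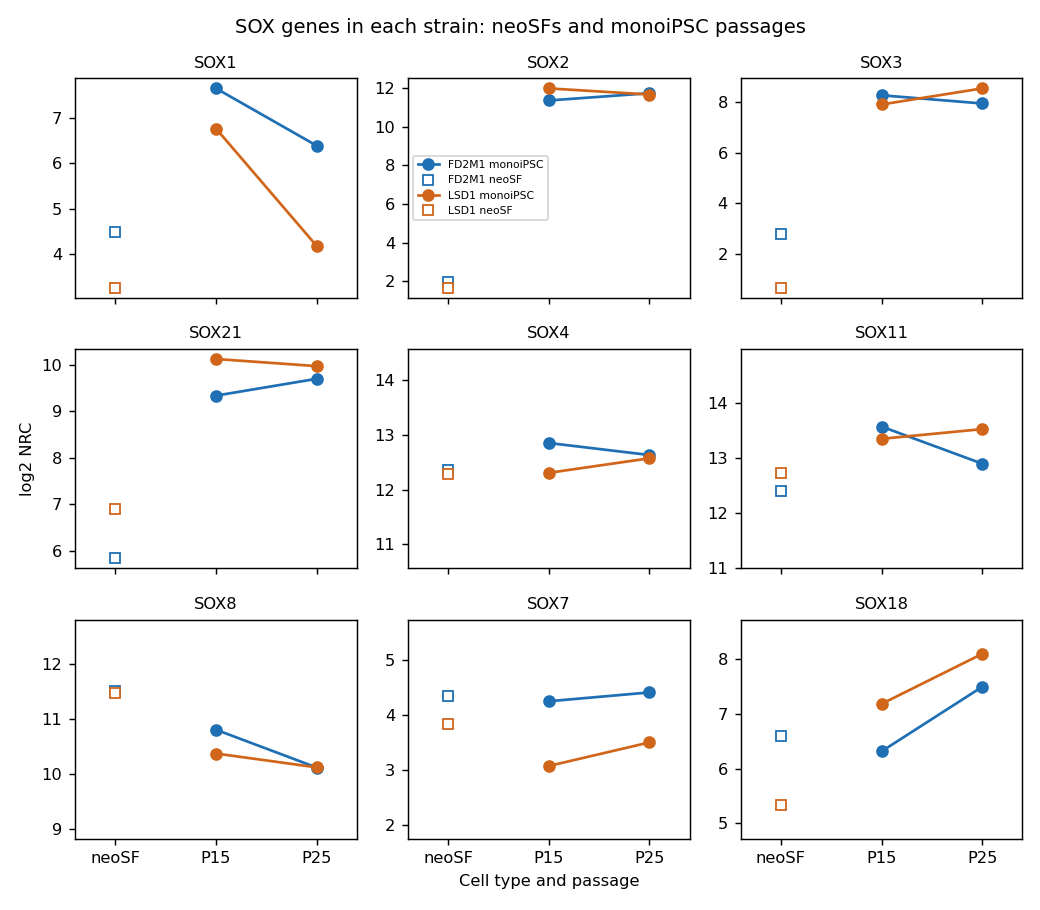
Log2 NRC of 9 SOX genes by cell type and passage (P15 and P25, passages 15 and 25) in FD2M1 (blue) and LSD1 (orange), with open squares for neoSFs and joined circles for the monoiPSC line of that strain; every panel spans at least 4 log2 units, and SOX17 is left out. The lines of SOX1 go down and those of SOX18 go up in both strains, while those of SOX2 and SOX4 move little and in opposite directions in the strains.

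The difference between strains in the change from neoSFs to monoiPSCs was also tested, but with 1 neoSF library per strain it cannot be told apart from a difference between the cultures. Of all genes 0.0841% (11 genes) were DE for this interaction in edgeR's quasi-likelihood test, with 1193 at an unadjusted p under 0.05, and none of the 7 SOX genes tested was among them. For SOX3, the change was 2.36 larger in LSD1 on the log2 scale (95% interval -0.67 to 5.39), and for SOX18 it was 1.89 larger (95% interval -0.50 to 4.27). For SOX18, the log2 differences from the fibroblasts of the same strain were -0.27 and 0.91 in FD2M1, and 1.84 and 2.75 in LSD1, at passages 15 and 25.

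The genes whose pattern over the 6 libraries lay closest to each SOX gene were found by the root mean square difference of log2 values after centering each gene. For SOX2 these were RFX4 (0.18), CELSR2 (0.35) and TTYH1 (0.39), out of 11523 candidates. RFX4, a transcription factor of the developing neural tube, was listed at 0 in both neoSF libraries and at 623, 892, 873 and 970 in the monoiPSC libraries of FD2M1 and LSD1 at passage 15 and then at passage 25. The nearest gene was RHOU for SOX3 (0.12), AATK for SOX21 (0.20), TMEM11 for SOX4 (0.03), MAMLD1 for SOX11 (0.13), TTI1 for SOX8 (0.07) and RHBDF1 for SOX18 (0.21). These distances were computed over 6 libraries in 2 groups and carry no test. SOX2 had 2 counts in each neoSF library, and RFX4 and TTYH1 were at or near 0 there. The distances from SOX2 therefore depend on values under the floor.

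The lists of partner and target genes give the setting in which the SOX genes were read. SOX2 rose together with all 7 tested genes of the pluripotency list, out of 8 with a row. Their median log2 fold change was 8.74. All of them but SALL4 entered the test through the monoiPSCs alone, so this count and median were largely set by the filter. Of all genes tested, 24.3% were DE and higher in monoiPSCs. POU5F1, which encodes the OCT4 partner of SOX2, was at 1.95 and 0 NRC in FD2M1 and LSD1 neoSFs and between 219 and 300 in monoiPSCs. NANOG was at 3.90 and 0 in the same neoSFs and between 280 and 1456 in monoiPSCs, lowest in FD2M1 at passage 15. FGF4, a classical SOX2 and OCT4 target in eutherian cells, was at or under the floor in all libraries.

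SOX1, SOX3 and SOX21 stood beside a mixed neural list. Of its 18 genes 11 were tested, 7 rose, 1 fell (ZIC1) and 3 did not pass, at a median of 3.92. The shares over all genes tested were 24.3% DE and higher and 21.6% DE and lower in monoiPSCs. ZIC2, POU3F2, POU3F3, FABP7 and NEUROG2 entered the test through the monoiPSCs alone, and ZIC1 through the neoSFs alone. The direction of those called was thus largely set by the filter. FABP7, a fatty acid binding protein of radial glia, went from 7.17 and 2.32 NRC in neoSFs to between 7748 and 12579 in monoiPSCs. Of the forebrain and eye genes of the list, none of which passed the filter, OTX2, SIX6 and RAX were at an NRC of no more than 3.37 in every library, whereas SIX3 reached 39.0 in neoSFs and 20.3 in monoiPSCs, and LHX2 reached 104 and 23.6. PAX6, a neural progenitor factor, was too low to be tested and stood at 140 (FD2M1) and 41.3 (LSD1) at passage 15 and at 24.5 (FD2M1) and 2.06 (LSD1) at passage 25, the same order of the 4 libraries as that of SOX1. With 4 libraries from 2 lines this shared order is a description.

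For SOX4 and SOX11, all 6 tested genes of the neuronal list rose, at a median of 4.45. SOX4 itself was not DE and SOX11 stayed under 2-fold. STMN2, ELAVL3 and ELAVL4 entered the test through the monoiPSCs alone, so their rise was largely set by the filter. Of all genes tested, 24.3% were DE and higher in monoiPSCs. TUBB3, a neuronal tubulin, went from 162 and 107 NRC in neoSFs to between 1120 and 3414 in monoiPSCs. ELAVL3, a neuronal RNA-binding protein, had no counts in neoSFs and was at least 108-fold higher in monoiPSCs against a floor of 3 counts per library. Setting ELAVL3 at that bound left the median of the list at 4.45.

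**Figure D4:**
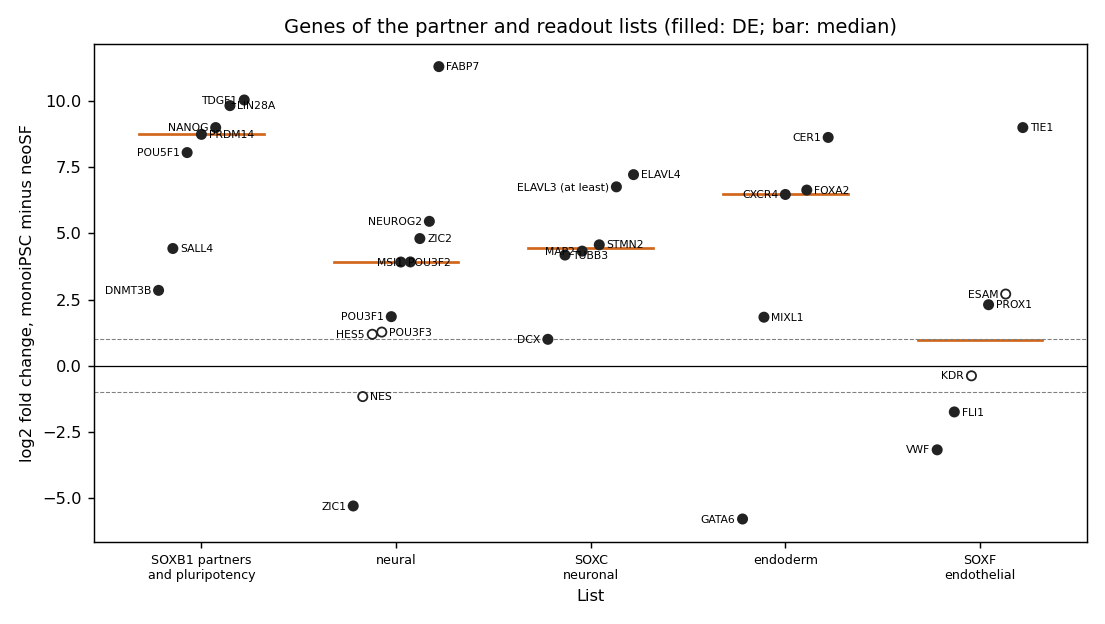
Log2 fold change (monoiPSC minus neoSF) of tested genes of 5 lists of partner and target genes, with filled points for DE genes, orange bars for the median over all tested genes of each list (1 neural gene is not drawn) and dashed lines at 2-fold; ELAVL3 is drawn at its lower bound. Pluripotency and neuronal points all lie above 0, and the SOXF endothelial list holds points on both sides, with a median of 0.97. All pluripotency genes but SALL4, and STMN2, ELAVL3 and ELAVL4, entered the test through the monoiPSCs alone.

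SOX17 had 4 counts in 1 monoiPSC library and none in the others, while part of the endoderm list was high in monoiPSCs. Of 13 endoderm genes 5 were tested, 4 rose and 1 fell, beside 24.3% higher and 21.6% lower over all genes tested. CXCR4 and CER1 entered the test through the monoiPSCs alone, and GATA6 through the neoSFs alone, so their direction was largely set by the filter. FOXA2, a forkhead factor of endoderm and axial midline, went from 27.3 and 26.4 NRC in FD2M1 and LSD1 neoSFs to 1118 and 1511 at passage 15 and 3719 and 3820 at passage 25. CER1, a secreted NODAL and BMP antagonist of anterior endoderm, went from 5.85 and 12.7 to 1096 and 2600 at passage 15 and 5354 and 5231 at passage 25. CXCR4 and MIXL1 also rose, with monoiPSC values of 442 to 752 and 68.0 to 83.0. GATA6, a hypoblast and endoderm factor, fell from 419 and 1079 in neoSFs to between 2.53 and 28.3, and GATA4 was listed at 0 in all 6 libraries. EOMES, HHEX and APOA2 had an NRC of at most 1.12 in every monoiPSC library, next to the SOX17 value of at most 2.51.

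**Figure D5:**
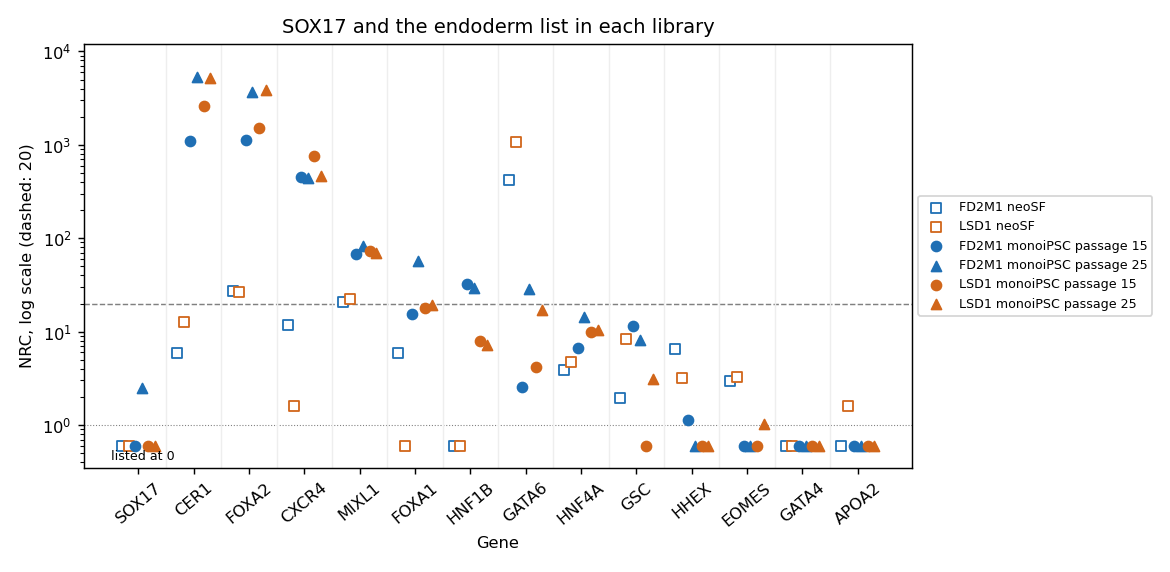
NRC (log scale) of SOX17 and the 13 genes of the endoderm list in each library, with the marks and colors of the plot of SOX genes by library; the dashed line is an NRC of 20, and values listed at 0 are drawn below the dotted line. CER1, FOXA2 and CXCR4 lie above 440 in all monoiPSC libraries, whereas SOX17, HHEX, EOMES, GATA4 and APOA2 lie below an NRC of 3 there.

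SOX18 and SOX7 stood beside an endothelial list in which, of 13 genes, 6 were tested, 2 rose (TIE1, PROX1) and 2 fell (FLI1, VWF). Over all genes tested, 24.3% were DE and higher and 21.6% DE and lower in monoiPSCs. Of those called, TIE1 entered the test through the monoiPSCs alone and VWF through the neoSFs alone. TIE1, an endothelial receptor tyrosine kinase, went from 1.95 and 0 NRC in neoSFs to between 333 and 583 in monoiPSCs. Of the genes that define endothelium, CDH5 was at no more than 1.26 NRC in any monoiPSC library and 0 in neoSFs, and PECAM1 at 9.27 to 16.3 in monoiPSCs. Over the 7 endothelial markers the summed NRC was 162 to 267 in neoSFs and 439 to 713 in monoiPSCs, most of which was TIE1. The part of other cells in the SOX18 level was not tested. In bulk RNA, more cells of a type and more RNA per cell cannot be told apart. ETV2, a regulator of endothelial fate that did not pass the filter, stood at 17.3 (FD2M1) and 138 (LSD1) at passage 15 and at 124 (FD2M1) and 965 (LSD1) at passage 25, so it was lowest and highest in the same libraries as SOX18.

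Beside SOX8, TFAP2A, a crest and ectoderm factor from the glial and crest list, fell from 231 and 701 NRC in FD2M1 and LSD1 neoSFs to between 12.5 and 102 in monoiPSCs. Of the melanocyte markers 1 of 2 tested rose (DCT), and of the keratinocyte markers the 1 tested fell (DSG3). DCT entered the test through the monoiPSCs alone, and TFAP2A and DSG3 through the neoSFs alone, so their direction was largely set by the filter. Within the hypoblast and endoderm markers 2 rose and 1 fell of 3 tested, with CXCR4 and GATA6 each entering through 1 cell type alone. The background for these counts was 24.3% DE and higher and 21.6% DE and lower in monoiPSCs.

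The other SOX genes help to place the 10. SOX12, the remaining SOXC gene, rose by 6.75 on the log2 scale (adjusted p = 8.94e-06 in edgeR's quasi-likelihood test). Its mean NRC went from 9.81 ± 2.68 (SD, n = 2) to 982 ± 93.7 (SD, n = 4). Among the other SOXC genes, SOX4 was not DE and SOX11 stayed under 2-fold. Of the SOXD genes, SOX5 (3.49) and SOX13 (1.45) rose and SOX6 fell (-2.68). SOX12 and SOX5 entered the test through the monoiPSCs alone, so their rise was largely set by the filter. The SOX6 change was -1.05 without the FD2M1 neoSFs, where SOX6 stood at 1550 against 294 in LSD1 neoSFs. SOX9, the SOXE relative of SOX8, was called lower (-2.16, adjusted p = 0.0338 in edgeR's quasi-likelihood test) on neoSF values of 19063 in FD2M1 and 1519 in LSD1 against 1832 to 2368 in monoiPSCs. Without the FD2M1 neoSFs its log2 fold change was 0.59, and with strain as a block the adjusted p was 0.133 in the same test. The call of SOX9 was lost or its direction turned in 10 of 15 alternatives. SOX14 and SOX30 did not enter the test, at mean monoiPSC NRC of 0.87 and 5.38.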

How the data were processed

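RNA of 2 neoSF and 4 monoiPSC libraries was sequenced. Per their methods, the authors aligned reads to MonDom5 with RefSeq transcripts in StrandNGS, dropped low-quality and non-primary multiply mapped reads, and deposited the expected counts, partly fractional, of each gene, together with log2 values scaled by DESeq. The kit is named both as stranded and unstranded, so reads of overlapping antisense genes may not have been told apart, and how reads shared by similar genes were split is not given in the sources used here; of the values above 0, 87.1% were fractional. Each deposited log2 value equals the log2 of the count times 1 factor per library, and values under 1 are listed as 0.

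Counts were rounded and tested with edgeR 4.0.16 (quasi-likelihood, TMM) under R 4.3.3. The design was written for counts, and rounding was the one adaptation. Alternatives were DESeq2 1.42.0, limma 3.58.1 on the deposited log2 values, RLE scaling, no filter, a raw-count filter, strain as a replicate block, single passages, summed passages and leaving out each library. The interaction of strain and group was added after the data had been seen. Scripts were tested on simulated data. Gene spans came from a RefSeq table of another assembly, in which all 10 identifiers matched. Depth was 14278794 to 35564261 counts per library.

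Named genes were every listed SOX gene, the other SOX genes, lists of partner and marker genes, and the nearest genes by pattern (3 for SOX2 and 1 for each other tested gene). The SOX genes and the lists were chosen with earlier results of these data known. Same-numbered libraries were not used as pairs; strain pairs each line with the fibroblasts it came from, and the difference between strains in neoSFs correlated with that in monoiPSCs at r = 0.040 across 13072 genes, which are not independent replicates. SOX10, SOX15 and SRY were not analysed here, and some list genes are not reported here.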

Additional observations from a re-analysis of the deposited data

Results flagged for a closer look

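For SOX9, the log2 change from neoSFs to monoiPSCs in LSD1 minus that in FD2M1 was 3.93 (95% interval 3.21 to 4.65, adjusted p = 0.0311 in edgeR's quasi-likelihood test of the interaction). It came from a gap between 2 single fibroblast libraries, where SOX9 stood at an NRC of 19063 in FD2M1 and 1519 in LSD1, whereas the monoiPSC values were 1832 to 2368. Each strain gave 1 neoSF library, so the spread behind this test comes from the monoiPSC passages alone, and a difference between strains cannot be told apart from one between 2 cultures. None of the 7 tested SOX genes described above passed the interaction test, in which SOX1, SOX7 and SOX17 were not included.

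Among the 4 monoiPSC libraries, SOX17 had 1 value that stood apart by Dixon's criterion, the NRC of 2.51 (4 counts) in FD2M1 at passage 25 against 0 in the others, a gap of 1 times the whole range. Chance marks about 1 in 20 groups in this way, and a gene with reads in a single library always meets the criterion.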

How the results depend on the processing

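For the change from neoSFs to monoiPSCs, SOX2 (9.82 to 10.10 on the log2 scale), SOX3 (5.33 to 7.56), SOX21 (3.01 to 4.09) and SOX4 (0.27 to 0.47) kept their direction and their call in 15 alternatives. Of the 10 SOX genes described, 1 (SOX8) was DE and lower, and this number was 0 with the passage 15 libraries alone and 0 to 1 when single libraries were left out (0 without FD2M1 or LSD1 at passage 25). SOX9 ranged from -3.05 to 0.59 when single libraries were left out. With strain as a replicate block, 4 of the 10 were DE as without it, with SOX21 at 3.49, SOX8 at -1.02 and SOX18 at 1.38 (adjusted p = 0.099), and among the 12 SOX genes tested only SOX9 lost its call (-1.72).

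Between passages, DESeq2 called 119 genes where edgeR called 0, and leaving out single libraries gave 0 to 215 (215 without FD2M1 at passage 25). Between strains DESeq2 called 191, and leaving out single libraries gave 0 to 50 (50 without LSD1 at passage 15). Small differences changed sign. Without the strain block, SOX2 was -0.021 and SOX4 -0.015 for passage. Leaving out single libraries gave, for passage, -0.30 to 0.35 (SOX2), -0.16 to 0.42 (SOX3), -0.29 to 0.51 (SOX21), -0.24 to 0.28 (SOX4) and -0.57 to 0.038 (SOX11), and for strain -0.19 to 0.43 (SOX3), -0.13 to 0.55 (SOX11) and -0.55 to 0.14 (SOX8). The cause of these shifts was not tested.

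Of the 10 SOX genes, 7 were above 3 counts in both neoSF libraries and 5 above 10 counts, while 9 were above either floor in all monoiPSC libraries. SOX2 and SOX3 in neoSFs and SOX17 throughout are limited by depth. A comparison of longest with shortest gene length was not run, since the table gives 1 length per gene. Leaving out a neoSF library leaves 1, which is then assumed to vary like the monoiPSCs.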
